A study of Mus musculus with 12 samples.

Results

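Kinesins are motor proteins that move along microtubules, and the mouse genes for them are named Kif followed by a number. They were taken here from retinal RNA bound to HA-tagged ribosomes as every row whose symbol starts with Kif and a digit, which gave 43 rows, to which Kifc1 was added as a mitotic member. The 44 rows carry 43 symbols, out of 53090 gene rows in all, and 37 symbols had enough counts to be tested among 18638 tested genes. Of these symbols 12 encode mitotic motors (Kif2c, Kif4, Kif11, Kif14, Kif15, Kif18a, Kif18b, Kif20a, Kif20b, Kif22, Kif23 and Kifc1), and all 12 were tested. Of the other 31 symbols, 27 are kinesin family genes for transport, cilia, microtubule ends or signalling. The rest are Kif1bp, which binds kinesins, the antisense transcript Kif16bos and the pseudogenes Kif4-ps and Kif22-ps. Of the 31, 25 were tested. The libraries came from C57BL/6 mice that had received tamoxifen by intraperitoneal injection on days 1 and 2 after birth, 6 of them collected at postnatal day 9 (P9) and 6 at postnatal day 3 (P3). The labels call the cells retinal pericytes, the contractile cells that wrap capillaries, and RNA was purified after immunoprecipitation through the HA tag. Which promoter or cell type drives the HA tag is not named in the labels, and the labels do not say whether each library is a separate animal, so the p-values reflect library-to-library spread, which may be technical. Time since tamoxifen was longer at P9, so it cannot be told apart from age, and all animals received the drug.

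A kinesin couples ATP hydrolysis to steps along a microtubule, and the family divides by the cargo or structure that the motor serves. Mitotic kinesins are made mainly in dividing cells around the G2 and M phases, where they separate the spindle poles, move chromosomes to the spindle equator and build the midzone at which the daughter cells part. Transport kinesins act in cells whether or not they divide. In neurons they carry vesicles, mitochondria and synaptic precursors along axons. In photoreceptors kinesin-2 motors supply the outer segment through the connecting cilium. In the mouse retina, progenitors still divide at P3 and the production of neurons has largely ended by P9.

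Totals per library were 32507000 to 37776000 counts at P9 and 26840000 to 33514000 at P3. Values below are CPM, counts scaled to a common library size with trimmed-mean factors, so a gene at 1 CPM rests on 25.8 to 38.5 counts per library, and they are not divided by transcript length. They therefore compare libraries for a gene, not one gene with another. P3 replicates 4 and 5 stood apart from the other P3 libraries in the mitotic genes, as given below. The pericyte markers were all detected, and their summed level was 2738 to 6185 CPM at P9 and 195 to 1189 CPM at P3. The rod markers summed to 7522 to 15543 CPM at P9 and 1341 to 2830 CPM at P3, so the libraries also held RNA of retinal neurons.

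The mitotic kinesins fell together at P9 while the other kinesins moved in both directions. All 12 mitotic genes passed the test with lower values at P9, each at least 2-fold lower and each with no P9 library reaching the lowest P3 library. Among all tested genes 51.8% passed the test in either direction, 25.6% passed lower at P9, 15.4% were lower without overlap of the libraries and 8.01% passed at least 2-fold lower. The median log2 fold change (P9 over P3) of the 12 was -2.54, with a range from -3.29 to -1.65, against a median of -0.0018 over all tested genes. Only 1.58% of all tested genes, 295 genes, had a log2 fold change as low as the median of the 12. Throughout, passing the test means an adjusted p under 0.05 in the edgeR quasi-likelihood fit, with p-values adjusted across every tested gene by the Benjamini-Hochberg method.

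Of the 25 other tested rows, 10 rose, 7 fell and 8 did not pass the test, and their median log2 fold change was 0.16. Without Kif1bp, which binds kinesins and is not a motor, 9 of 24 rose and 7 fell. Among all tested genes 26.1% passed higher at P9 and 25.6% lower, so rises and falls were each common in the background. The libraries of the 2 ages did not overlap for 15 of the 25, which were 10 higher and 5 lower, against 16.3% of all tested genes that were higher without overlap. Only Kif26a and Kif24 were at least 2-fold lower, and only Kif17, Kif9 and Kif21b at least 2-fold higher, where the background for a 2-fold rise was 10%. The ranges of the classes touched, since Kif26a at -1.66 lay just beyond Kif22 at -1.65, the smallest change of a mitotic member.

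**Figure D1:**
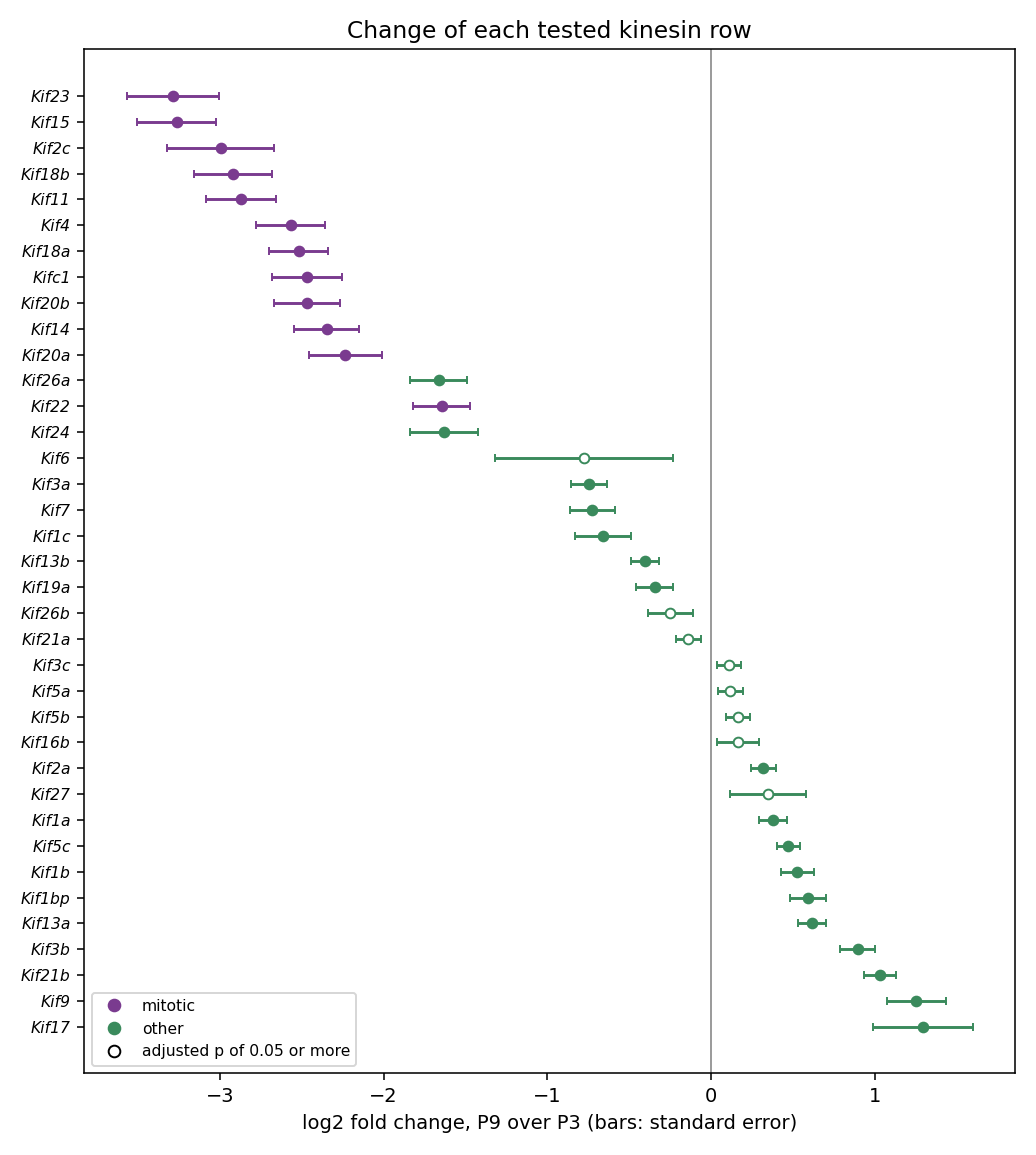
Log2 fold change of each of the 37 tested kinesin symbols, P9 over P3, with the standard error as a bar, for mitotic members in purple and all others in green, and open points where the adjusted p was 0.05 or more. The mitotic members run from -3.29 for Kif23 to -1.65 for Kif22, and the others from -1.66 for Kif26a to 1.29 for Kif17.

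Short motifs in the promoters, which were not used to choose the members, were counted next. The motifs searched on both strands were the cell cycle homology region (CHR, TTTGAA), bound by the DREAM and MuvB complexes that control cell cycle genes, the CCAAT box (CCAAT), bound by NF-Y, and an E2F-type site (TTCCCGCC). No motif is contained in another. RefSeq on GRCm38.p6 listed a promoter of 250 bases before to 50 after the start for 11 of the 12 mitotic members and for 23 of the other rows. Those 23 include Kif16bos, Kif1bp and the untested Kif12 and Kif2b. Among tested rows none was listed for Kif20a, Kif5a, Kif5b, Kif13b, Kif19a and Kif21b. To show the layout, stretches of 120 bases follow for Kif11, Kif15 and Kif18b, mitotic members with a CHR at the start site, and for Kif3b, the transport motor described below that rose. Capitals mark the CHR, written TTTGAA or TTCAAA by strand, and the CCAAT box, written CCAAT or ATTGG.
Kif11 chr19:37376262-37376381, plus strand: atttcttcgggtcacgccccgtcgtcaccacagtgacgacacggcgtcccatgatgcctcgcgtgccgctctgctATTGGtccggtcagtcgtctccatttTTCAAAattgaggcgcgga
Kif15 chr9:122950961-122951080, plus strand: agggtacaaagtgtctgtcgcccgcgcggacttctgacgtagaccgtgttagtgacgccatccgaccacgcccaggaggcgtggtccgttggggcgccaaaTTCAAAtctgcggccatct
Kif18b chr11:102925115-102925234, minus strand: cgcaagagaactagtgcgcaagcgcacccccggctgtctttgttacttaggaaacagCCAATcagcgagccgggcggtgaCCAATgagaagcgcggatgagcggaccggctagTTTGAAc
Kif3b chr2:153291275-153291394, plus strand: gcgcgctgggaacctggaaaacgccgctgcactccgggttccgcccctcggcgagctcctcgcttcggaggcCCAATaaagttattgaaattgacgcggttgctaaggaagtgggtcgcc
In Kif11 the CHR begins 19 bases before the listed start and the CCAAT box 45 bases before it. Kif15 has its CHR at the same distance, 19 bases before the start, without a CCAAT box in the window. In Kif18b the CHR begins 3 bases after the first transcribed base and the CCAAT boxes lie 53 and 30 bases before it. Kif3b has a CCAAT box 69 bases before the start and no CHR letters in the 300 bases listed.

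A CHR was found in 10 of 11 listed mitotic promoters (90.9%) and in 2 of 23 other kinesin promoters (8.70%), Kif26b and Kif27. The share was 18.1% over all 27025 listed promoters and 11.8% over those of tested genes. Kif18a was the mitotic member without these letters in its window. Within 50 bases of the start, a window chosen after the matches were seen, the CHR stood in 8 of 11 mitotic promoters (72.7%), in 1 of 23 others (4.35%) and in 4.92% of all promoters. The CCAAT box stood in 7 of 11 mitotic promoters (63.6%), 10 of 23 others (43.5%) and 37.9% of all. Both motifs occurred together in 7 of 11 mitotic promoters, in 2 of 23 others and in 7.12% of all. The E2F-type letters were found in 0 of 11 mitotic promoters, 2 of 23 others and 2.24% of all. These matches describe letters in a window and do not show binding.

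**Figure D2:**
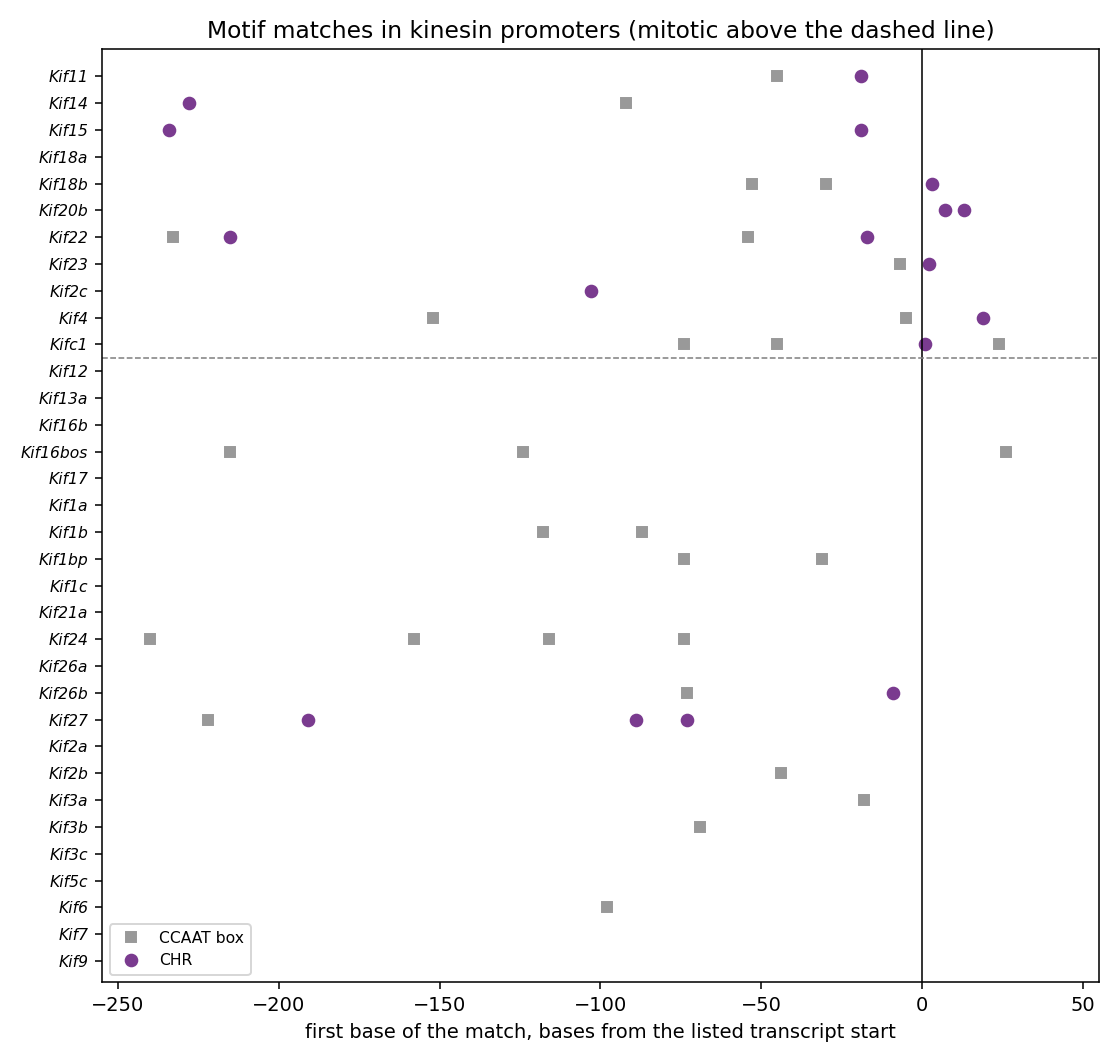
Position of each CHR (purple circles) and CCAAT box (grey squares) match in bases from the listed transcript start, for the 11 mitotic promoters above the dashed line and the 23 other kinesin promoters below it. Mitotic CHR matches gather within 50 bases of the start in 8 of 11 promoters, against 1 of 23 below the line.

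The motors that set up the bipolar spindle were 5.53-fold to 9.62-fold lower at P9. Kif11, the kinesin-5 that pushes the spindle poles apart (chr19:37376382-37421863 in RefSeq on GRCm38.p6, as for all positions here), is listed as 2 rows with identical values in all 12 libraries, so its reads were divided between them and its full level is the sum. Per row it had a lowest, median and highest value of 4.56, 6.92 and 10.5 CPM at P9, against 36.7, 56.0 and 77.8 CPM at P3. The highest P9 library lay well under the lowest P3 library, P3 replicate 5, and the log2 fold change was -2.87 ± 0.21 (SE, adjusted p = 9.95e-08). Kif15, a kinesin-12 that helps keep the poles apart (chr9:122951081-123018733), had 5.65, 8.85 and 10.9 CPM at P9 and 48.9, 85.4 and 122 CPM at P3. Its groups were separated by more than the whole P9 range, with a log2 fold change of -3.27 ± 0.24 (adjusted p = 1.06e-07). Kifc1, a kinesin-14 that walks toward the minus end and focuses the poles (chr17:33875664-33890633), had 8.55, 10.8 and 14.6 CPM at P9 against 38.0, 60.8 and 86.4 CPM at P3. It fell by 2.47 ± 0.22 on the log2 scale (adjusted p = 3.96e-07), with P3 replicates 4 and 5 lowest in their group. Kifc1 shares reads with its near-identical copy Kifc5b, which makes the level of each uncertain, and Kifc5b also fell (log2 fold change -1.98).

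The motors that handle chromosomes held both the smallest fall of the class and one of the largest. Kif22, a chromokinesin that pushes chromosome arms away from the poles (chr7:127027729-127042467), had 22.4, 25.1 and 31.5 CPM at P9 and 55.6, 85.2 and 117 CPM at P3. It was the least changed mitotic member, 3.13-fold lower at P9 (log2 fold change -1.65 ± 0.17, adjusted p = 2.24e-06), and its ages still did not overlap. Kif4, the other chromokinesin, which acts on chromosome arms and at the midzone (chrX:100626065-100727271), had 6.46, 8.07 and 11.7 CPM at P9 against 35.4, 47.7 and 75.4 CPM at P3. The gap left no overlap, and the log2 fold change was -2.57 ± 0.21 (adjusted p = 2.40e-07). Kif2c, a kinesin-13 that takes microtubules apart at centromeres to correct faulty attachments (chr4:117159633-117182624), had 2.13, 4.17 and 8.0 CPM at P9 against 21.9, 41.6 and 51.9 CPM at P3. It was 7.97-fold lower (log2 fold change -3.0 ± 0.33, adjusted p = 3.06e-06) and had the largest relative spread of the class at P9, an SD of 50.5% of the mean.

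The kinesin-8 motors act at the plus ends of microtubules. Kif18a, which damps chromosome movement so that chromosomes align (chr2:109280738-109341749), had 3.52, 4.34 and 5.96 CPM at P9 and 18.7, 26.2 and 31.6 CPM at P3. It had the smallest adjusted p of the class (7.45e-08) with a fall of 2.52 ± 0.18 on the log2 scale, and every P3 library was over 3 times the highest P9 library. Kif18b, which shortens astral microtubules (chr11:102905518-102925134), had 2.57, 4.36 and 6.23 CPM at P9 against 21.4, 34.7 and 43.1 CPM at P3. Its libraries were likewise separate, and its log2 fold change was -2.92 ± 0.24 (adjusted p = 2.21e-07).

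The midzone and cytokinesis motors were between 4.71-fold and 9.77-fold lower. Kif23, the motor of the centralspindlin complex (chr9:61917277-61946810), showed the largest fall of all kinesins, with 6.10, 9.41 and 12.7 CPM at P9 and 51.7, 96.4 and 150 CPM at P3. Its log2 fold change was -3.29 ± 0.28 (adjusted p = 3.41e-07), and its spread at P3 was wide, since P3 replicates 4 and 5 held 53.3 and 51.7 CPM and P3 replicate 3 held 150 CPM. Its partner in that complex, Racgap1, averaged 27.9 ± 6.33 CPM at P9 and 119 ± 31.5 CPM at P3 (SD, n = 6 each, log2 fold change -2.09). Kif20a, which carries the chromosomal passenger complex to the midzone (chr18:34624624-34633277), had 6.97, 11 and 17.2 CPM at P9 against 36.3, 59.5 and 76.2 CPM at P3. Its groups did not overlap, and it fell by 2.24 ± 0.22 on the log2 scale (adjusted p = 1.37e-06). Kif20b, a relative of Kif20a that acts late in cytokinesis (chr19:34922335-34975750), had 4.98, 7.41 and 8.80 CPM at P9 against 26.6, 41.0 and 63.1 CPM at P3. Kif14, which recruits citron kinase to the midbody (chr1:136466301-136555938), had 6.10, 7.94 and 9.65 CPM at P9 against 25.7, 43.5 and 56.4 CPM at P3. Both were separate between the ages, with log2 fold changes of -2.47 ± 0.20 for Kif20b (adjusted p = 2.36e-07) and -2.35 ± 0.20 for Kif14 (adjusted p = 2.89e-07).

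**Figure D3:**
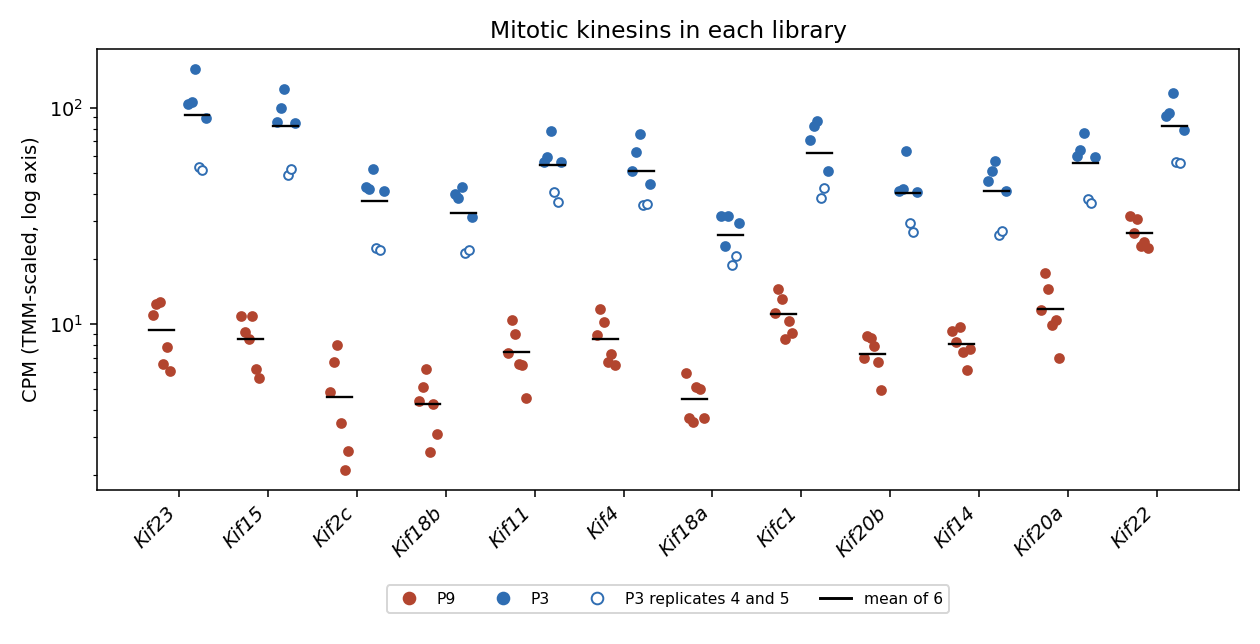
CPM of the 12 mitotic kinesins in each of 6 P9 libraries (red) and 6 P3 libraries (blue) on a log axis, ordered by log2 fold change, with the group mean as a bar and P3 replicates 4 and 5 as open circles. No P9 library reaches a P3 library in any of the 12, and the open circles are the lowest P3 points throughout.

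The mitotic members also varied together among libraries of the same age. P3 replicates 4 and 5 were the 2 lowest P3 libraries in all 12 mitotic members, against 3 of the 25 others. P3 replicate 3 was the highest P3 library in all 12, and P9 replicate 6 was among the 2 lowest P9 libraries in 11. The SD at P3 was 22.1% to 40.0% of the mean across the 12, with a median of 30.9%, and the median over the other 25 rows was 13.3%. With P3 replicates 4 and 5 left out, a comparison added after the data were seen, all 12 again passed lower and their median log2 fold change was -2.73. Of the 26 other rows tested in that comparison, 11 rose and 6 fell.

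Summed over the 12, mitotic kinesins had 131, 145, 144, 105, 103 and 87.8 CPM in P9 replicates 1 to 6, against 776, 822, 1029, 469, 465 and 703 CPM in P3 replicates 1 to 6. The mean was 119 ± 23.9 CPM at P9 and 711 ± 218 CPM at P3 (SD, n = 6 each), so the sum was 5.96-fold lower at P9 and no P9 library approached the P3 range. The other rows summed to 4125 ± 224 CPM at P9 and 3321 ± 227 CPM at P3, which was 1.24-fold higher at P9. Of the summed CPM of these 44 rows, mitotic members thus made up 1.98% to 3.58% in the P9 libraries and 11.7% to 23.2% in the P3 libraries. That total includes Kif1bp, which is not a motor, and leaves out kinesin genes with other symbols, such as Cenpe and Kifc2. Since CPM are not divided by transcript length, these are shares of counts and not of transcripts.

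Other gene groups moved with these libraries, and their part in the result was not tested. Of the 10 retinal progenitor markers, 9 fell at P9, and the 10 had summed levels of 1130 to 1352 CPM at P9 and 1826 to 2675 CPM at P3. That list includes the cell cycle gene Ccnd1, at 81.2 ± 30.6 CPM at P9 and 930 ± 223 CPM at P3. The progenitor sum is therefore not free of cell cycle genes. Within P3 the progenitor sum was lowest in replicates 4 and 5 (1826 and 1930 CPM) and highest in replicate 3, as in the mitotic kinesins. Within P9 that match was absent, since replicate 6, with the lowest mitotic sum (87.8 CPM), had a progenitor sum of 1220 CPM and replicate 1, with 131 CPM of mitotic kinesins, had the lowest progenitor sum (1130 CPM). The pericyte sum at P3 ran the other way, highest in replicates 4 and 5 (1046 and 1189 CPM) and lowest in replicate 3 (195 CPM). At P9 it did not, since the pericyte sum was highest in replicate 2 (6185 CPM) and lowest in replicate 6 (2738 CPM), where the mitotic sum was also highest (145 CPM) and lowest (87.8 CPM). All 10 pericyte markers rose at P9. All 10 rod and all 8 bipolar markers rose at P9, and all 11 lens markers fell, with lens sums of 55.8 to 1610 CPM at P9 and 3933 to 11447 CPM at P3. None of the genes on these 5 lists was at 0 in all libraries. Among all tested genes 26.1% passed higher at P9 and 25.6% lower. Marker lists of some other cell types moved in both directions. Of 8 cone markers 5 rose and 1 fell, and of 7 amacrine markers 2 rose and 3 fell. The proliferation gene Mki67 averaged 36.8 ± 14.3 CPM at P9 and 1926 ± 1335 CPM at P3, and the pericyte receptor gene Pdgfrb averaged 698 ± 209 CPM at P9 and 116 ± 56.2 CPM at P3. In such bulk samples fewer dividing cells and less mitotic RNA per cell cannot be told apart.

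**Figure D4:**
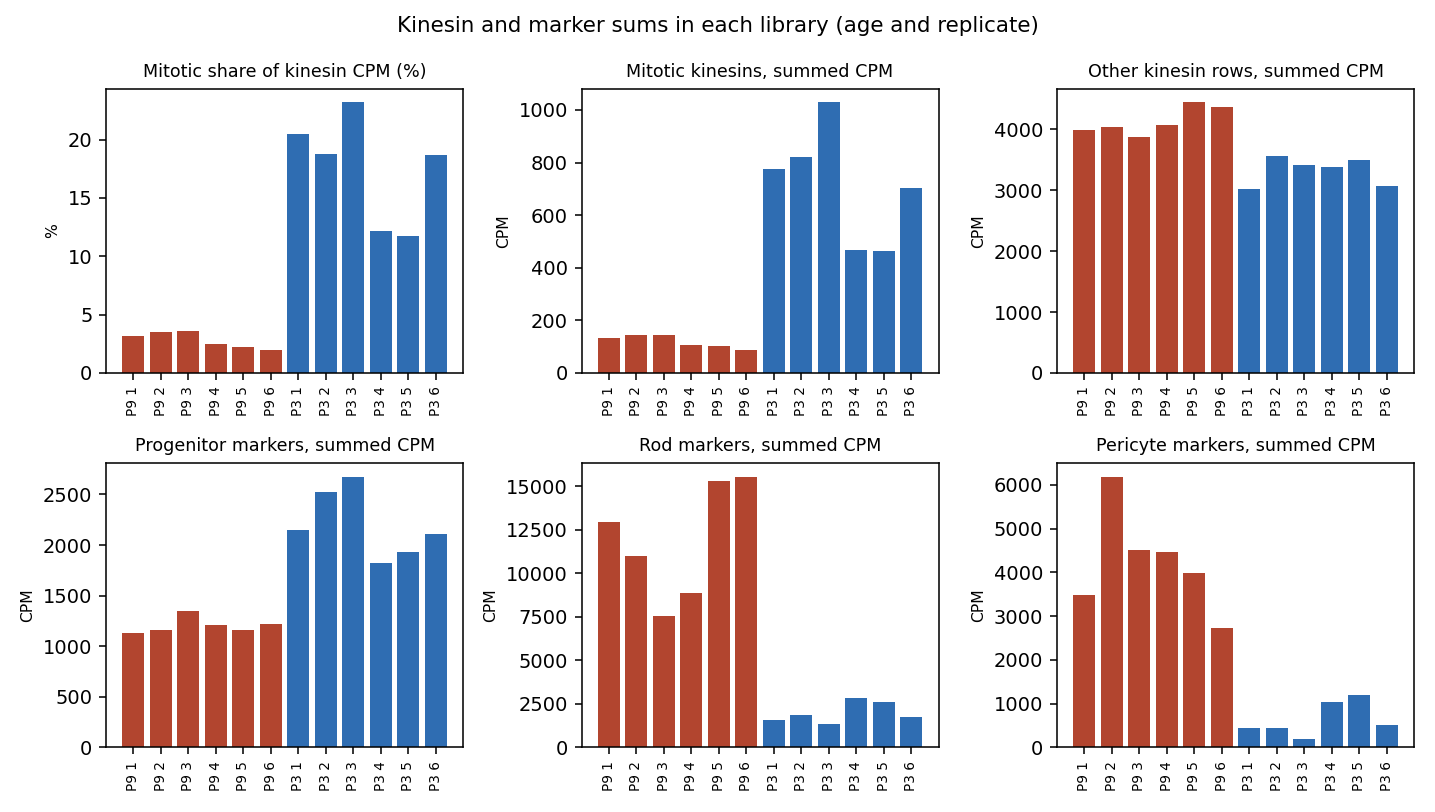
Mitotic share of the summed CPM of the 44 rows in percent, and summed CPM of mitotic kinesins, other kinesins and the progenitor, rod and pericyte markers, one bar per library with P9 (red) left of P3 (blue). Within P3, replicates 4 and 5 have the lowest mitotic and progenitor sums and the highest pericyte sums.

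The genes that work with mitotic kinesins moved the same way. All 20 listed spindle, kinetochore and midzone partners passed lower at P9, beside 25.6% of all tested genes, with a median log2 fold change of -2.31. Numa1, which anchors microtubules at the poles, averaged 178 ± 15 CPM at P9 and 396 ± 34.6 CPM at P3 (log2 fold change -1.16). Spag5, a spindle protein known as astrin, averaged 12.8 ± 0.784 CPM at P9 and 121 ± 50.9 CPM at P3 (log2 fold change -3.24). Aurkb, the kinase of the passenger complex that Kif20a carries, averaged 5.35 ± 1.51 CPM at P9 and 57.1 ± 20.9 CPM at P3 (log2 fold change -3.41). Cenpe, the kinetochore kinesin whose symbol the naming rule leaves out, fell as well, with 16.6 ± 1.94 CPM at P9 and 106 ± 34.2 CPM at P3 (log2 fold change -2.68, adjusted p = 8.75e-08). Of the 5 kinesin genes with other symbols, 3 fell (Cenpe, Kifc5b and Stard9), Kifc3 rose (log2 fold change 0.40) and Kifc2 did not pass (adjusted p = 0.589).

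Kinesin-1, the motor for vesicles and mitochondria in axons, changed in 1 of its 3 heavy chains. Kif5c, an isoform enriched in neurons (chr2:49619286-49774778), had a lowest, median and highest value of 262, 301 and 315 CPM at P9, against 191, 213 and 239 CPM at P3. The ages did not overlap, and it rose by 0.47 ± 0.07 on the log2 scale (adjusted p = 6.04e-05). Kif5a, the other neuronal isoform, had 219, 255 and 259 CPM at P9 and 204, 227 and 252 CPM at P3, which overlapped (adjusted p = 0.209). Kif5b, the isoform found in most cell types, had 162, 173 and 191 CPM at P9 and 135, 161 and 168 CPM at P3, which also overlapped (adjusted p = 0.0771). Without P3 replicate 4, Kif5b passed the test at an adjusted p of 0.0407, with a log2 fold change of 0.20 in place of 0.16. The light chain genes Klc1, Klc2 and Klc4, which bind cargo, did not pass, and Klc3 rose (104 ± 12.3 CPM at P9, 76.8 ± 8.20 CPM at P3).

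Kinesin-2 subunits moved in opposite directions. Kif3a and Kif3b pair in the motor that drives intraflagellar transport, with Kifap3 as the third subunit. Kif3b (chr2:153291395-153333390) had 85.8, 107 and 115 CPM at P9 against 47.0, 52.7 and 66.7 CPM at P3. It rose by 0.90 ± 0.11 on the log2 scale (adjusted p = 9.26e-06) without overlap. Kif3a (chr11:53565701-53604248) had 70.9, 91.3 and 112 CPM at P9 against 139, 150 and 176 CPM at P3, and it fell by 0.75 ± 0.11 on the log2 scale (adjusted p = 5.56e-05), again without overlap. The fitted fold change (P9 over P3) of Kif3b was 3.12 times that of Kif3a. The within-library ratios of Kif3b to Kif3a did not overlap between the 2 ages. Kifap3 rose (170 ± 14.8 CPM at P9, 127 ± 15.5 CPM at P3, log2 fold change 0.42). Kif3c, a partner of Kif3a that is enriched in neurons, had 112, 122 and 131 CPM at P9 and 101, 111 and 130 CPM at P3 and did not pass (adjusted p = 0.234), although it passed without P3 replicates 4 and 5 (adjusted p = 0.0245). Kif17, a homodimeric kinesin-2 that carries NMDA receptor vesicles in dendrites and enters cilia (chr4:138262251-138301973), was scarce, with 1.59, 3.56 and 4.23 CPM at P9 against 0.793, 1.36 and 1.59 CPM at P3. It rose by 1.29 ± 0.31 on the log2 scale (adjusted p = 0.00241), and its lowest P9 and highest P3 libraries all but met.

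The kinesin-3 motors, which carry synaptic vesicle precursors and other membrane cargo, also divided. Kif1a, the axonal carrier of synaptic vesicle precursors (chr1:93015455-93102039), had 725, 768 and 835 CPM at P9 and 521, 590 and 704 CPM at P3. It rose by 0.38 ± 0.09 on the log2 scale (adjusted p = 0.00173) with no overlap. Kif1b, whose isoforms carry mitochondria and synaptic vesicle precursors (chr4:149176319-149307773), had 681, 748 and 915 CPM at P9 against 430, 544 and 639 CPM at P3. Its rise of 0.53 ± 0.10 (adjusted p = 0.000497) was also free of overlap. Kif13a, a carrier of recycling endosomes (chr13:46749087-46929917), had 140, 155 and 182 CPM at P9 against 92.4, 103 and 116 CPM at P3 and rose by 0.62 ± 0.08 (adjusted p = 2.62e-05). Its relative Kif13b fell, averaging 46.1 ± 3.92 CPM at P9 and 61.0 ± 6.65 CPM at P3 (log2 fold change -0.40, adjusted p = 0.00101). Kif1c, a widely expressed carrier of dense-core vesicles and integrins (chr11:70700396-70731970), had 61.2, 65.5 and 68.5 CPM at P9 against 63.7, 106 and 142 CPM at P3. It fell by 0.66 ± 0.17 on the log2 scale (adjusted p = 0.00485), and P3 replicate 4 lay within the P9 range. Without P3 replicates 4 and 5 its log2 fold change was -0.89. Kif16b, a carrier of early endosomes, averaged 17.7 ± 1.78 CPM at P9 and 15.8 ± 2.84 CPM at P3 and did not pass (adjusted p = 0.292).

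Among the kinesin-4 relatives Kif21b moved and Kif21a did not pass. Kif21b, which limits microtubule growth in neurons (chr1:136131390-136178001), had 529, 616 and 674 CPM at P9 against 250, 295 and 349 CPM at P3. Every P9 library exceeded every P3 library, and the log2 fold change of 1.03 ± 0.10 had the smallest adjusted p of the non-mitotic rows (9.87e-07). Kif21a, its close relative, had 181, 196 and 221 CPM at P9 and 185, 217 and 243 CPM at P3, which overlapped (adjusted p = 0.153). Kif7, the ciliary regulator of Hedgehog signalling, averaged 8.21 ± 1.42 CPM at P9 and 13.6 ± 1.77 CPM at P3 and fell (log2 fold change -0.73, adjusted p = 0.000485). Kif27, the paralog of Kif7, averaged 3.24 ± 0.883 CPM at P9 and 2.55 ± 0.517 CPM at P3 and did not pass (adjusted p = 0.225).

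The remaining motors act on microtubule ends, cilia and signalling. Kif2a, a kinesin-13 that trims microtubules in neurons (chr13:106958996-107022355), had 125, 133 and 147 CPM at P9 and 94.9, 110 and 121 CPM at P3. It rose by 0.32 ± 0.08 on the log2 scale (adjusted p = 0.00259) without overlap. Its relative Kif2c, which the list used here counts as mitotic, fell. Kif24, a kinesin-13 that restrains the growth of cilia from the mother centriole in cycling cells (chr4:41389964-41464919), had 4.23, 5.78 and 8.01 CPM at P9 against 12, 18.4 and 26.4 CPM at P3. It fell by 1.63 ± 0.21 on the log2 scale (adjusted p = 1.37e-05), and its ages did not overlap. P3 replicates 4 and 5 were its lowest P3 libraries, as in the mitotic class and also in Kif3a and Kif1c.

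Kif26a, an atypical kinesin without motor activity that restrains growth factor signalling (chr12:112143974-112181747), had 8.09, 13.8 and 16.4 CPM at P9 against 34.0, 38.7 and 53.9 CPM at P3. It fell by 1.66 ± 0.17 on the log2 scale (adjusted p = 2.14e-06), the largest fall among the non-mitotic rows, and its ages did not overlap. Its paralog Kif26b averaged 14.6 ± 2.29 CPM at P9 and 17.3 ± 3.14 CPM at P3 and did not pass (adjusted p = 0.144). Kif9, a motor of motile cilia (chr9:110476738-110525174), had 16.8, 18.3 and 22.5 CPM at P9 against 5.66, 6.79 and 11.2 CPM at P3. It rose by 1.25 ± 0.18 on the log2 scale (adjusted p = 4.19e-05) without overlap, and P3 replicates 4 and 5 were the highest P3 libraries. Kif19a, which limits the length of motile cilia, had 116, 170 and 178 CPM at P9 and 176, 199 and 248 CPM at P3. It fell by 0.35 ± 0.11 (adjusted p = 0.0178) with overlapping ages, and the call was lost without P3 replicates 4 and 5 (adjusted p = 0.0611).

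**Figure D5:**
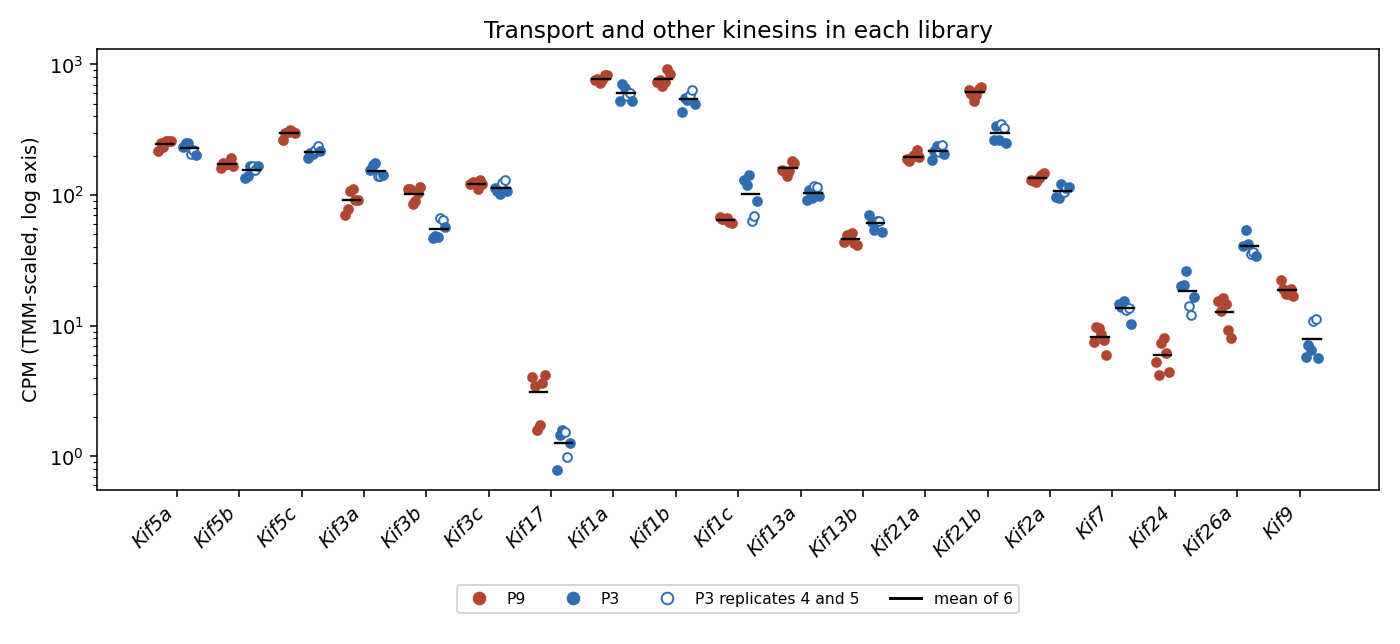
CPM on a log axis of 19 non-mitotic kinesins in each of 6 P9 libraries (red) and 6 P3 libraries (blue), grouped by family, with the mean as a bar and P3 replicates 4 and 5 as open circles. Kif3b, Kif21b and Kif9 are higher at P9 with no overlap, and Kif3a, Kif24 and Kif26a are lower with no overlap.

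Kif6 averaged 0.618 ± 0.430 CPM at P9 and 1.06 ± 0.518 CPM at P3 and did not pass (adjusted p = 0.248). Kif1bp, which binds kinesins and is not a motor, and which RefSeq now names Kifbp, averaged 73.1 ± 5.59 CPM at P9 and 48.5 ± 9.09 CPM at P3 and rose (log2 fold change 0.59, adjusted p = 0.000374). The 6 rows with too few counts to be tested were Kif12, Kif28, Kif2b, the antisense transcript Kif16bos and the pseudogenes Kif4-ps and Kif22-ps. Of these, Kif2b and Kif4-ps had no count in any library.

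Several pairs of relatives within a family moved apart, and these pairs, with Kif3b and Kif3a above, were chosen after their values were seen, so they carry no test. The log2 fold change of Kif2c minus that of Kif2a was -3.31, and that of Kif26a minus that of Kif26b was -1.41. Kif21b exceeded Kif21a by 1.17, Kif1b exceeded Kif1c by 1.18 and Kif13a exceeded Kif13b by 1.02 on the same scale. In each of these pairs the within-library ratios of P9 and P3 did not overlap. The ratio of Kif1a to Kif1b overlapped between the ages, with a difference in log2 fold change of -0.15.

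The other parts of the transport machinery moved in both directions, with more rises than falls in each list below. Among all tested genes 26.1% rose and 25.6% fell. Of 25 tested kinesin adaptors and light chains, 13 rose and 4 fell, with a median log2 fold change of 0.25. Rhot1, which links mitochondria to kinesin-1, averaged 180 ± 18.6 CPM at P9 and 94.0 ± 7.54 CPM at P3 (log2 fold change 0.93). Its adaptor Trak1 averaged 125 ± 13 CPM at P9 and 67.3 ± 12.4 CPM at P3 (0.89 on that scale), and Map7d2, which recruits kinesin-1 to microtubules, 29.8 ± 2.32 CPM at P9 and 16.2 ± 1.98 CPM at P3 (0.88). Map7d1, Ppfia1 and Plekhm2 fell, by 0.29, 0.24 and 0.25 on the log2 scale.

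Of 25 genes of dynein and dynactin, the motor that runs toward the minus end, 11 rose and 4 fell, beside the same 26.1% and 25.6% of all tested genes, with a median log2 fold change of 0.25. Dync1i1, the intermediate chain enriched in neurons, averaged 15.1 ± 2.64 CPM at P9 and 4.97 ± 1.19 CPM at P3 (log2 fold change 1.60), and Actr10 and Dync1li1 rose by 0.57 and 0.51. Nde1, a dynein regulator needed for progenitor mitosis, averaged 17.0 ± 2.97 CPM at P9 and 49.1 ± 9.15 CPM at P3 (log2 fold change -1.53), while Dync1li2 and Dctn5 fell by 0.38 and 0.39. Of 22 intraflagellar transport genes, the cargo trains of kinesin-2, 8 rose and 4 fell, with a median of 0.18, also beside 26.1% and 25.6% of all tested genes. Ttc30b, Ift43 and Ift22 rose by 0.90, 0.65 and 0.51 on the log2 scale, and Ift52, Ift172 and Traf3ip1 fell by 0.38, 0.37 and 0.28.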

How the data were processed

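RNA bound to HA-tagged ribosomes was measured in 12 retinal libraries, 6 at P9 and 6 at P3, grouped by the age in the labels. The authors deposited RSEM expected counts per gene, not scaled to depth, and 15.9% of the values are not whole. The tools named, per the submitters' processing notes, are STAR, RSEM, Trim Galore, FastQC and limma, with build mm10 (versions and annotation: not given in the sources used here). RSEM divides reads between near-identical genes by a model.

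After rounding, filterByExpr kept 18638 genes and removed 34452. TMM factors scaled the libraries. P9 was compared with P3 in edgeR 4.0.16 (R 4.3.3) by its quasi-likelihood F test, and p-values were adjusted over every tested gene (Benjamini-Hochberg). The SE is the size of the log2 fold change divided by the square root of F. Of rows with the same symbol the one with the highest mean was used. Symbols were matched to RefSeq on GRCm38.p6, all 43, 1 of them by an older symbol.

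The members, lists and tests were chosen with earlier results of these data known. Every mitotic member was named, as were other members with a mean of at least 1 CPM over the 12 libraries. Values over libraries were given for mitotic members, others averaging at least 100 CPM at either age and others with a called 2-fold change. Over the 12 libraries Kif3b and Kif1c averaged 79.0 and 83.8 CPM, so they reached 100 CPM at 1 age only. For the related lists, the 3 called genes with the smallest adjusted p in each direction were named. Kif6, Racgap1, Kifap3, the light chain genes and the family pairs were chosen after their values were seen. Replicates were numbered in accession order, so numbers pair no libraries. The sample names of P9 replicates 5 and 6 are crossed between the labels and the files, and both are P9. The procedure was run on simulated counts in which far fewer genes were changed than passed here. That run therefore does not check error rates for these data. Alternatives were other scaling factors and filters, DESeq2 1.42.0, limma-voom (limma 3.58.1), an adjusted p threshold of 0.01, each library left out and, added after the data were seen, P3 replicates 4 and 5 left out and both Kif11 rows summed.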

Additional observations from a re-analysis of the deposited data

Results flagged for a closer look

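In Kif5c, P9 replicate 1 stood apart from the other P9 libraries, with 262 CPM against 298 CPM in the nearest of them and 315 CPM in the highest. It was the single such case among 80 groups of 6 libraries checked, and chance marks about 1 in 20 groups. That library was still above all 6 P3 libraries, the highest of which held 239 CPM.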

How the results depend on the processing

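Under each of 21 alternatives the count of mitotic kinesins that fell was 12 and none rose. The median log2 fold change of the 12 ran from -2.62 to -2.44 with 1 library left out and from -2.73 to -2.52 under the other alternatives. Among the other rows, Kif1bp included, 10 to 11 rose and 6 to 7 fell, and their median was 0.13 to 0.23. Direction was compared only for kinesin genes that passed the test, and none of these reversed. For single kinesin genes under an alternative, 769 values kept their side of the threshold and 5 did not. Those 5 were from Kif19a, which missed a threshold of 0.01 and the test without P3 replicates 4 and 5, Kif5b, which passed with a mean of at least 10 CPM (adjusted p = 0.0416) and without P3 replicate 4, and Kif3c, which passed without P3 replicates 4 and 5. Calls over all genes numbered 9647, from 7110 where only genes of at least 10 CPM were tested to 10002 with DESeq2, and 7333 at a threshold of 0.01. No paired analysis was possible because replicate numbers were given in accession order. Depth limits the scarce genes Kif6, Kif17 and Kif27 most.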
